A study of Gossypium hirsutum with 30 samples.

Results

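The transcripts described here are 101 probe sets of the cotton genome array that were lower in ovules of the fuzzless-lintless (fl) mutant than in fibre-bearing wild-type (WT) ovules at both 10 and 15 dpa (days post anthesis), and that stand in none of the study's lists of transcription factors, phytohormone transcripts, and metabolic and cell wall transcripts. They were chosen from the measured values themselves. The mean of the 3 fl mutant arrays minus the mean of the 3 WT arrays had to be at most -1.585 on the log2 scale, a 3-fold decrease, at 10 dpa and again at 15 dpa. Of 24029 probe sets, 6.55% met this limit at 10 dpa, 1.91% at 15 dpa and 202 (0.841%) at both, of which 101 are in those lists and 101 are not. Because the rule used the arrays of 10 and 15 dpa, differences at these stages are given as a description without a test, and only 0, 5 and 20 dpa are tested.

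The fl mutant is a spontaneous mutant of Gossypium hirsutum L. cv. MCU5, kept as a pure line, and WT is the near isogenic MCU5 parent; no mutated gene is named in the labels, and plants of both genotypes were grown in the field. RNA of whole ovules was hybridised to Affymetrix cotton GeneChip arrays at 0 dpa (fibre initiation), 5, 10 and 15 dpa (elongation) and 20 dpa (secondary wall synthesis). Each of the 10 groups, fl mutant and WT at 5 stages, has 3 biological replicates, 30 arrays in all. The mutant ovules bear neither lint nor fuzz, so a lower value may come from fewer cells of a type or from less RNA per cell, and in whole ovules these cannot be told apart.

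A cotton fibre is a single cell of the outer ovule epidermis that bulges out around anthesis, elongates for weeks and then lays down a thick wall of cellulose. Elongation is known to need the loosening and supply of the primary wall, turgor, cortical microtubules made of alpha- and beta-tubulin, and a steady traffic of membrane and protein to the surface. Many transcripts known from elongating fibre, among them E6 and particular tubulins, were first cloned because they are abundant there.

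The deposited values are log2 expression, shifted so that for every probe set the 6 values of a stage have 0 as their median; each value is thus a deviation within a stage and carries no expression level. Array medians lay between -0.037 and 0.043, and no array stood apart in any stage. The sign of the differences needs a caution at 5 and 20 dpa, where the labels of the arrays give the opposite direction to the study's own tables for 338 of 338 and 453 of 453 listed directions. At 0, 10 and 15 dpa labels and tables give the same direction for 370 of 370, 1676 of 1676 and 462 of 462. The study also reports qRT-PCR of selected changed transcripts over all stages, with a pattern similar to its own array results. Which direction holds at 5 and 20 dpa was not tested here. The labels were kept, and every direction given for 5 or 20 dpa is by the labels.

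At 10 dpa the 101 transcripts were lower in the fl mutant by a median of -3.11 on the log2 scale, an 8.66-fold decrease, with a range of -7.73 to -1.60. At 15 dpa the median was -2.55, a 5.87-fold decrease, with a range of -6.57 to -1.60. The medians over all 24029 probe sets were 0.04 and -0.01 at these stages. The mean over the 101 transcripts was between -1.76 and -1.66 in the fl mutant arrays and between 1.65 and 1.74 in the WT arrays of 10 dpa, and between -1.49 and -1.48 in the fl mutant arrays and between 1.40 and 1.45 in the WT arrays of 15 dpa. The 3 replicates of a group thus lay close together in this mean. The distance between the genotypes follows from the choice of the 101. For each of the 101 transcripts all fl mutant arrays lay below all WT arrays at 10 dpa and at 15 dpa, which the rule largely fixes; over all probe sets this held for 28.3% at 10 dpa and 26.8% at 15 dpa. The smallest distance between the nearest arrays of the genotypes was 1.25 at 10 dpa (Ghi.7084.1.S1_at) and 1.27 at 15 dpa (GraAffx.16623.1.S1_at).

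Other transcripts of the ovule moved at these stages too, here counted as called where the limma adjusted p was 0.01 or less and the fold change 3 or more. At 10 dpa 6.55% of all probe sets were called lower and 4.91% higher, and at 15 dpa 1.91% lower and 1.52% higher. The lists that follow exclude the 101 and name only transcripts of the study's tables of changed transcripts, so their shares are not those of any fair sample. The counts are of probe sets, and several can match the same gene, as the RD22 matches do in the fibre list. Of 25 fibre transcripts (expansin, germin-like, BURP domain, fasciclin-like and wax genes), 17 were called lower and 1 higher at 10 dpa, with array means of -1.37 to -1.29 in fl mutant and 1.31 to 1.37 in WT ovules. At 15 dpa 16 of them were lower and 3 higher, with array means of -1.22 to -1.13 in fl mutant and 1.09 to 1.15 in WT ovules. The fibre list was thus not uniform: its differences ran from -7.20 to 2.23 at 10 dpa and from -7.04 to 3.23 at 15 dpa, the highest at 15 dpa being the BURP domain match Ghi.4648.2.A1_s_at. Of 23 photosynthesis transcripts, 4 were called lower and 4 higher at 10 dpa. At 15 dpa 9 of the 23 were called lower and 0 higher, with a median difference of -1.39 and array means of -0.691 to -0.581 in fl mutant and 0.569 to 0.642 in WT ovules. Photosynthesis transcripts were thus lower beside the 101 at 15 dpa, and mixed at 10 dpa. Of 27 probe sets picked by annotation words for seed storage, late embryogenesis and lipid transfer, calls went both ways. They were 11 lower against 10 higher (10 dpa) and 5 lower against 6 higher (15 dpa). This list also holds probe sets described as harpin-induced or NDR1/HIN1-like, such as Ghi.9232.1.S1_at and Ghi.10425.3.S1_s_at. These 2 were lower at 10 dpa (-3.88 and -2.14) and higher at 15 dpa (3.27 and 4.13), so the calls both ways are in part theirs. Of 17 seed coat flavonoid transcripts, few were called, 2 lower against 2 higher (10 dpa) and 3 lower against 0 higher (15 dpa). The part of these transcripts in the differences of the 101 was not tested.

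**Figure D1:**
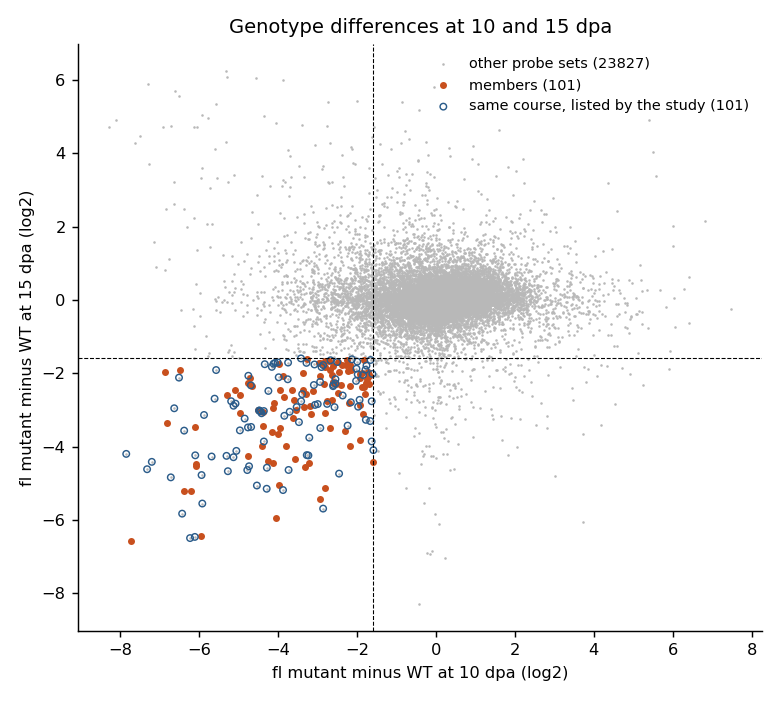
Difference between the fl mutant and WT at 10 dpa (x axis, log2) and at 15 dpa (y axis, log2) for each of 24029 probe sets; filled orange points are the 101 transcripts described here, open blue circles the 101 of the same course in the study's lists of transcription factors, phytohormone, and metabolic and cell wall transcripts, and dashed lines the rule at -1.585. The orange points reach from the corner of the dashed lines down to Ghi.680.1.S1_s_at at -7.73 and -6.57.

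The course between the 2 stages varied among the transcripts. The difference was larger in size at 10 dpa for 66 of them and at 15 dpa for 35, and for 33 the 2 differences lay within 0.5 of each other on the log2 scale. The extremes were GarAffx.14950.1.S1_s_at, with -6.86 at 10 dpa and -1.95 at 15 dpa, and Ghi.8534.1.A1_s_at, with -1.60 at 10 dpa and -4.41 at 15 dpa. A decrease of at least 4 on the log2 scale was reached by 29 transcripts at 10 dpa, by 17 at 15 dpa and by 10 at both. Just inside the limit stood Ghi.8534.1.A1_s_at, Ghi.7820.1.S1_s_at (-3.27 at 10 dpa and -1.60 at 15 dpa) and GhiAffx.25542.1.A1_at (-1.83 and -1.64 at these stages). Just outside stood Ghi.9263.1.A1_a_at (-6.13 at 10 dpa and -1.58 at 15 dpa), Ghi.5183.2.A1_x_at (-2.13 and -1.58) and GhiAffx.49965.1.S1_at (-1.64 and -1.57), so that transcripts on either side of the limit differ little in the smaller of their 2 differences.

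The lowest transcript was Ghi.680.1.S1_s_at, annotated only as a transcribed locus with weak similarity to a Caenorhabditis elegans protein. Its values at 10 dpa were -4.03, -3.55 and -4.29 in fl mutant ovules and 3.89, 3.89 and 3.55 in WT ovules. At 15 dpa they were -3.20, -3.24 and -3.35 in fl mutant and 3.20, 3.37 and 3.35 in WT ovules. The genotypes were far apart at both stages, 212-fold at 10 dpa and 95.2-fold at 15 dpa, with the fl mutant lower.

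Ghi.1314.3.A1_x_at followed, whose locus, LOC107905189, carries the synonyms TUA10 and TubA4, names of alpha-tubulin, the partner of beta-tubulin in microtubules. Its values at 10 dpa were -3.20, -3.06 and -2.88 in fl mutant ovules and 2.88, 2.89 and 2.96 in WT ovules. At 15 dpa they were -3.41, -3.11 and -3.43 in fl mutant and 3.12, 3.11 and 3.16 in WT ovules. Its decrease was larger at 15 dpa (87.2-fold) than at 10 dpa (62.1-fold), which among the 8 lowest transcripts also held for Ghi.4402.1.A1_s_at. Alpha-tubulin genes resemble each other in sequence, and the ending _x_at marks probes that can also bind other transcripts. This value may therefore mix several tubulin genes.

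The other 6 of the 8 lowest transcripts have no annotation in the tables used here. Ghi.5889.1.A1_x_at had -3.21, -3.13 and -3.24 in fl mutant ovules and 3.13, 3.24 and 3.18 in WT ovules at 10 dpa, and differed by -5.21 at 15 dpa. Ghi.5748.1.S1_s_at had -2.99, -3.44 and -3.18 in fl mutant and 2.99, 3.02 and 3.02 in WT ovules at 10 dpa, and differed by -5.22 at 15 dpa. Ghi.8381.1.S1_s_at and Ghi.1438.1.S1_s_at were close to each other at both stages. They differed between the genotypes by -6.07 each at 10 dpa, and at 15 dpa by -4.53 for the first and -4.47 for the second. GarAffx.28288.1.S1_s_at and Ghi.4402.1.A1_s_at took opposite courses. GarAffx.28288.1.S1_s_at had -6.83 at 10 dpa and -3.35 at 15 dpa, whereas Ghi.4402.1.A1_s_at had -4.05 at 10 dpa and -5.94 at 15 dpa. In Ghi.4402.1.A1_s_at the fl mutant arrays of 15 dpa were at -3.12, -2.90 and -2.85 and the WT arrays at 2.85, 3.01 and 3.08.

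**Figure D2:**
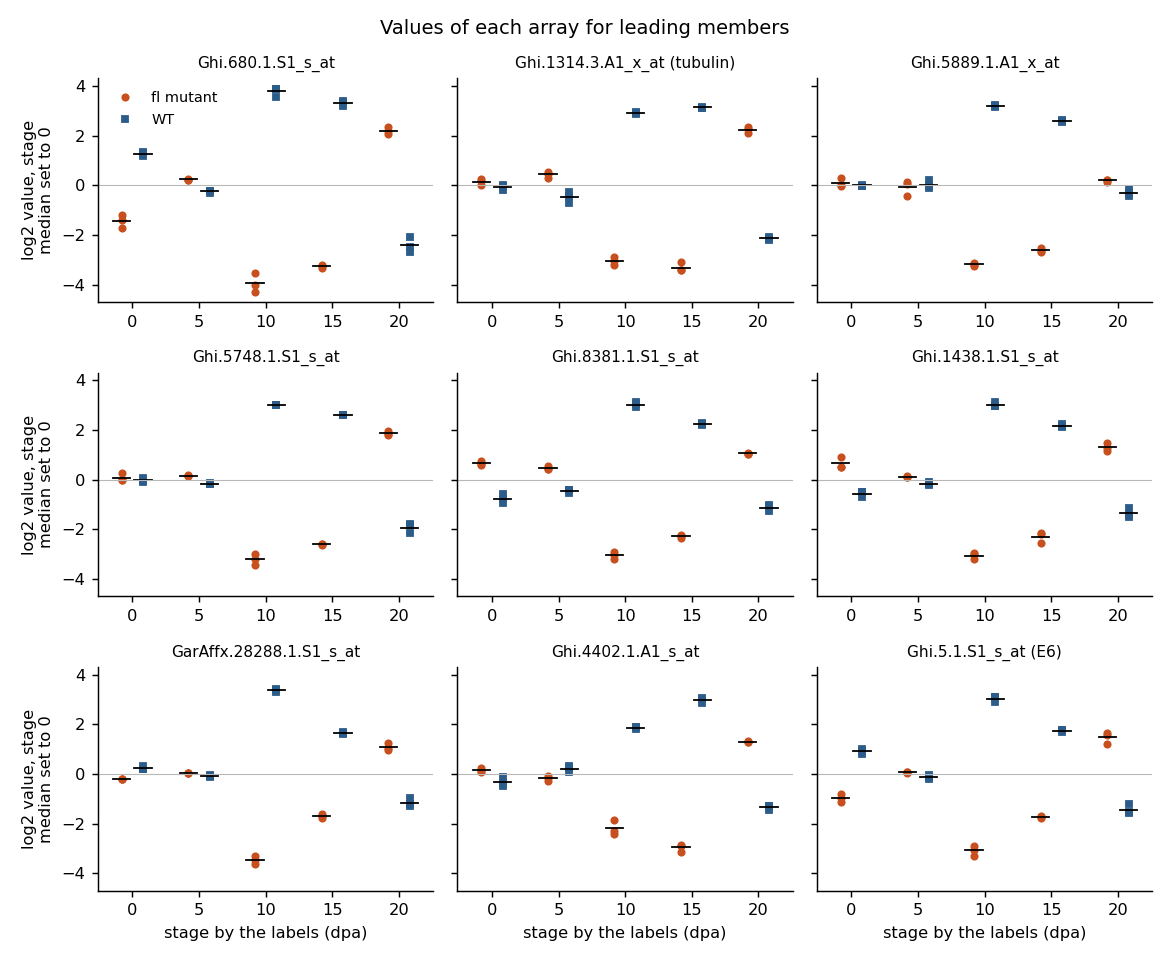
Value of each array (y axis, log2 with the stage median set to 0) at 5 stages by the labels (x axis, dpa) for the 8 transcripts with the lowest mean difference at 10 and 15 dpa and for E6; orange circles are fl mutant arrays, blue squares WT arrays, and black lines group means of 3 arrays. At 10 and 15 dpa the fl mutant lies below WT in each panel, and at 20 dpa 8 of the 9 panels show it above WT by more than 2 on the log2 scale, with Ghi.5889.1.A1_x_at at 0.49.

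An annotation was at hand for only 14 of the 101 transcripts, from the copy of the study's annotation table used here (10), from the array platform's gene table (6), or from both (2); the other 87 are known by probe set only. That copy is shortened, and the 10 transcripts it names are the same 10 that were called lower at 0 dpa below, so the named transcripts are no fair sample of the 101.

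Among transcripts of fibre and the cell surface, E6 (Ghi.5.1.S1_s_at, LOC107913945), the classical fibre transcript of cotton, had -3.06, -2.88 and -3.30 in fl mutant ovules and 3.12, 3.12 and 2.88 in WT ovules at 10 dpa. At 15 dpa it had -1.68, -1.77 and -1.75 in fl mutant and 1.76, 1.77 and 1.68 in WT ovules. The genotypes were thus 69.3-fold apart at 10 dpa and 11.1-fold apart at 15 dpa. The transcript of LOC107908860, whose synonym is H6L (Ghi.783.1.S1_s_at), differed by -3.98 at 10 dpa and by -1.74 at 15 dpa, a course that also ran from a large to a smaller difference. H6 is known as a proline-rich wall protein of cotton fibre.

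3 further matches are to proteins with known roles elsewhere in the cell. GhiAffx.9295.1.S1_x_at matches elongation factor 1-alpha, which carries aminoacyl-tRNA to the ribosome, and stands for 4 loci at once. It differed by -2.94 at 10 dpa and -2.07 at 15 dpa, and it had the widest spread between fl mutant replicates of the 101 transcripts at 10 dpa, with -2.23, -0.98 and -1.09 against 1.66, 1.88 and 0.98 in WT ovules. Ghi.1224.1.S1_x_at matches an Arabidopsis RING/U-box protein, a domain known from ubiquitin ligases, and differed by -4.51 at 10 dpa and -3.01 at 15 dpa. Ghi.2844.1.S1_s_at is similar to Arabidopsis cyclin H, a subunit of the kinase that activates other cyclin-dependent kinases, and was among the smaller differences with -2.39 at 10 dpa and -1.77 at 15 dpa.

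The remaining annotated transcripts carry no clear role. GarAffx.14950.1.S1_s_at matches a P-loop nucleoside triphosphate hydrolase of Arabidopsis, a class of proteins that bind and split nucleotides, and Ghi.4657.1.S1_s_at an Arabidopsis protein of unknown function (-3.98 at 10 dpa and -5.05 at 15 dpa). Ghi.7853.1.S1_at (LOC107953590, synonym Ssh2) differed by -3.63 and -3.22 at these stages, and GhiAffx.24203.1.S1_at (LOC107921248) by -4.13 and -2.95. GhiAffx.2217.1.S1_at, Ghi.3800.1.A1_at and GhiAffx.7119.1.S1_a_at are described only as transcribed loci and differed by -4.76, -3.32 and -4.96 at 10 dpa and by -4.26, -4.56 and -3.08 at 15 dpa.

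At 0 dpa, when fibres initiate, the 101 transcripts as a whole did not stand lower in the fl mutant: their median difference was -0.00, beside 0.09 over all probe sets, and 51 lay below 0 and 50 above. Yet 10 of the 101 were called lower in the fl mutant and 0 higher, where a call takes an adjusted p of 0.01 or less in limma and a fold change of 3 or more. Over all probe sets 1.39% were called lower and 0.154% higher. Without the fold threshold 32 of the 101 were lower and 12 higher at this adjusted p, beside 3198 lower and 4046 higher of all 24029 probe sets. All fl mutant arrays lay below all WT arrays for 38 transcripts, and above them for 29, where all probe sets give 22.0% and 35.0%. The 91 others had a median difference of 0.08 at 0 dpa.

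The largest differences at 0 dpa were in transcribed loci with no known role. GhiAffx.2217.1.S1_at had -2.34, -2.70 and -2.36 in fl mutant ovules and 2.36, 2.41 and 2.34 in WT ovules, a difference of -4.83 with an SE of 0.10 and a limma adjusted p of 1.29e-07. Ghi.3800.1.A1_at had -2.00, -2.61 and -2.45 in fl mutant and 2.01, 2.00 and 2.05 in WT ovules, a difference of -4.37 with an SE of 0.14 and a limma adjusted p of 9.48e-07. In both the nearest arrays of the genotypes were at least 4 log2 units apart.

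GarAffx.14950.1.S1_s_at, the P-loop hydrolase match, had -2.02, -1.66 and -1.96 in fl mutant ovules and 1.83, 1.66 and 1.79 in WT ovules at 0 dpa, a difference of -3.64 (SE 0.10, limma adjusted p 4.22e-07). Ghi.680.1.S1_s_at, the lowest at 10 and 15 dpa, had -1.18, -1.39 and -1.72 in fl mutant and 1.33, 1.30 and 1.18 in WT ovules, a difference of -2.71 (SE 0.13, limma adjusted p 6.75e-06). The genotypes did not overlap in either. E6 had -0.98, -1.15 and -0.80 in fl mutant ovules and 0.99, 0.94 and 0.80 in WT ovules, a difference of -1.88 (SE 0.10, limma adjusted p 1.03e-05).

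The other 5 called lower at 0 dpa were the match of unknown function Ghi.4657.1.S1_s_at (-2.23), the elongation factor match (-2.09), the cyclin H match (-2.03), the transcribed locus GhiAffx.7119.1.S1_a_at (-1.79) and the RING/U-box match Ghi.1224.1.S1_x_at, which was the closest to the threshold at -1.64 and missed it at -1.57 without fl mutant replicate 1. The tubulin probe set differed by 0.22 and H6L by 0.10 at 0 dpa, and neither was called. Of the 8 lowest transcripts at 10 and 15 dpa, Ghi.8381.1.S1_s_at (1.43) and Ghi.1438.1.S1_s_at (1.22) stood on the other side at 0 dpa, below the fold threshold. Outside the 101 there were 29 rapid wound and touch probe sets, several of them matches of the same gene, TCH4. Of the 29, 15 were called lower and 0 higher in the fl mutant at 0 dpa. Their array means at this stage were -1.36 to -1.29 in fl mutant and 1.25 to 1.27 in WT ovules. Their array means at 10 dpa were -1.55 to -1.49 in fl mutant and 1.43 to 1.53 in WT ovules, but at 15 dpa they were 1.09 to 1.12 in fl mutant and -1.20 to -1.11 in WT ovules, unlike the 101. Their part in the results at 0 dpa was not tested.

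At 5 dpa, in early elongation, the 101 transcripts had a median difference of 0.41 by the labels, beside -0.07 over all probe sets. By the labels 6 were called higher in the fl mutant and 0 lower, where all probe sets give 1.84% and 0.179%. All fl mutant arrays lay above all WT arrays for 79 of the 101 and below them for 9, beside 18.9% and 30.3% of all probe sets, so most of the 101 showed small differences on the same side in every replicate. At the same adjusted p with no fold threshold, 57 were higher and 5 lower by the labels, beside 2499 higher and 2629 lower of all 24029 probe sets.

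The largest by the labels at 5 dpa was Ghi.9152.2.A1_at, without annotation, with 1.60, 1.33 and 1.41 in fl mutant ovules and -1.66, -1.44 and -1.33 in WT ovules, a difference of 2.92 (SE 0.10, limma adjusted p 1.15e-06). Ghi.6161.1.S1_s_at had 1.07, 0.77 and 1.00 in fl mutant and -1.44, -0.77 and -2.02 in WT ovules, a difference of 2.35 (SE 0.28, limma adjusted p 0.000568). Its WT arrays were the most scattered of the 101 transcripts at this stage, with an SD of 0.625, though the genotypes did not overlap.

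Ghi.7797.1.S1_s_at differed by 2.20 (SE 0.09, limma adjusted p 2.79e-06) and Ghi.1077.1.A1_s_at by 1.98 (SE 0.13, limma adjusted p 2.57e-05) at 5 dpa. In Ghi.7797.1.S1_s_at the fl mutant arrays were at 1.00, 1.17 and 1.15 and the WT arrays at -1.00, -1.28 and -1.02. In Ghi.1077.1.A1_s_at they were at 1.18, 0.79 and 0.98 in the fl mutant and at -1.02, -0.79 and -1.20 in WT. None of the 6 called at 5 dpa was called at 0 dpa, and none of them has an annotation here. The tubulin probe set differed by 0.91, E6 by 0.18 and H6L by 0.25 by the labels, all below the fold threshold.

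At 20 dpa, during secondary wall synthesis, the 101 transcripts had a median difference of 1.04 by the labels, beside 0.01 over all probe sets, and the differences ran from -2.39 to 5.07. By the labels 31 were called higher in the fl mutant and 1 lower, where all probe sets give 2.47% and 1.95%. All fl mutant arrays lay above all WT arrays for 73 and below them for 13, beside 27.9% and 30.4% of all probe sets. The mean over the 101 was between 0.634 and 0.650 in the fl mutant arrays and between -0.670 and -0.623 in the WT arrays. With the genotype names of the study's tables these signs would be turned and their sizes unchanged. Those tables give a direction at 20 dpa for 9 of the 101, and all 9 are opposite to the labels.

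**Figure D3:**
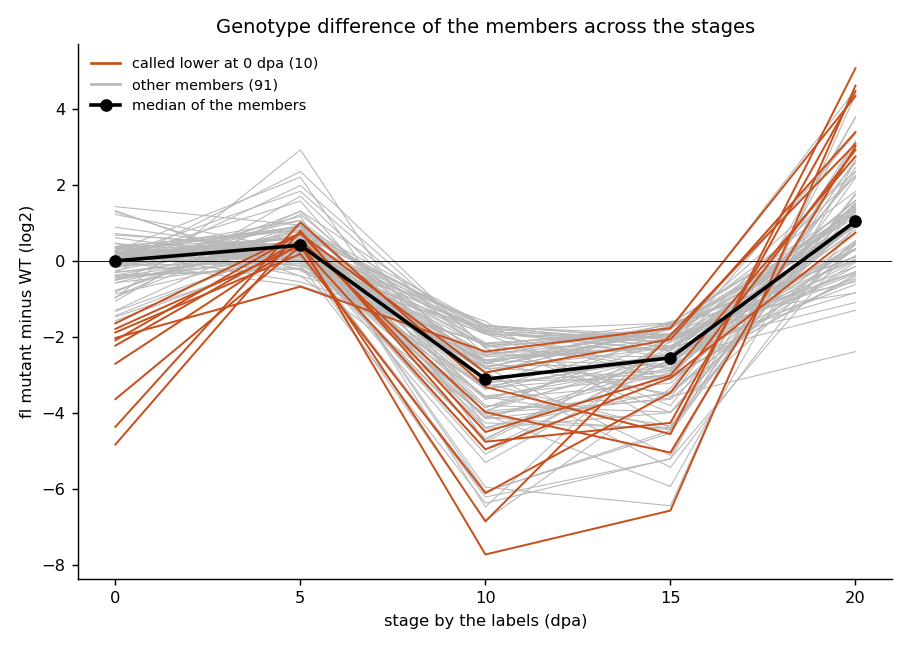
Difference between the fl mutant and WT (y axis, log2) at 5 stages by the labels (x axis, dpa), one line per transcript; orange lines are the 10 transcripts called lower at 0 dpa, grey lines the other 91, and the black line with points the median of the 101. The median runs through -0.00, 0.41, -3.11, -2.55 and 1.04.

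The largest difference at 20 dpa by the labels was again in a transcribed locus, Ghi.3800.1.A1_at, with 2.40, 2.41 and 2.55 in fl mutant ovules and -2.40, -2.70 and -2.75 in WT ovules, a difference of 5.07 (SE 0.11, limma adjusted p 1.22e-08). Ghi.680.1.S1_s_at had 2.18, 2.33 and 2.08 in fl mutant and -2.08, -2.67 and -2.49 in WT ovules, a difference of 4.61 (SE 0.15, limma adjusted p 9.59e-08). The genotypes were more than 4 log2 units apart at their nearest arrays in both, and both had been lower in the fl mutant at 0 dpa.

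GhiAffx.34141.1.A1_s_at, without annotation, had 2.32, 2.22 and 2.27 in fl mutant ovules and -2.24, -2.22 and -2.25 in WT ovules, a difference of 4.50 (SE 0.06, limma adjusted p 2.46e-09), after -0.81 at 0 dpa. GhiAffx.2217.1.S1_at had 2.72, 2.48 and 1.99 in fl mutant and -2.17, -2.04 and -1.99 in WT ovules, a difference of 4.46 (SE 0.17, limma adjusted p 2.32e-07). Of these, only GhiAffx.34141.1.A1_s_at had not been called at 0 dpa.

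Among the annotated transcripts the tubulin probe set had 2.09, 2.25 and 2.33 in fl mutant ovules and -2.15, -2.09 and -2.20 in WT ovules at 20 dpa, a difference of 4.37 (SE 0.08, limma adjusted p 8.24e-09). E6 differed by 2.92 (SE 0.14, limma adjusted p 7.66e-07), with 1.58, 1.65 and 1.22 in fl mutant and -1.52, -1.58 and -1.22 in WT ovules. The cyclin H match differed by 4.34, the elongation factor match by 3.39, the P-loop hydrolase match by 3.08, the match of unknown function by 3.02 and the RING/U-box match by 2.75, and all 5 were called higher by the labels. H6L (1.22), the Ssh2 transcript (1.03), LOC107921248 (1.04) and GhiAffx.7119.1.S1_a_at (0.74) did not reach the fold threshold.

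The single transcript called lower by the labels at 20 dpa was Ghi.6161.1.S1_s_at, with -1.39, -1.27 and -1.08 in fl mutant ovules and 1.19, 1.16 and 1.08 in WT ovules, a difference of -2.39 (SE 0.09, limma adjusted p 2.39e-07). This is the transcript whose difference at 5 dpa was among the 4 largest, so it took the opposite side to most of the 101 at 20 dpa. The other 5 called at 5 dpa were not called at 20 dpa.

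Transcripts of the lists outside the 101 also differed at 20 dpa. Of the 17 seed coat flavonoid transcripts, 14 were called lower and 3 higher by the labels, with array means of -1.02 to -0.937 in fl mutant and 0.942 to 1.03 in WT ovules. Of the 23 photosynthesis transcripts, 14 were called higher and 0 lower, with array means of 0.697 to 0.733 in fl mutant and -0.771 to -0.719 in WT ovules. Of the 27 probe sets of the seed storage, late embryogenesis and lipid transfer list, 8 were called higher and 3 lower. Among them the storage protein beta-globulin (Ghi.8040.1.S1_s_at) differed by 9.57 by the labels, the highest of all 24029 probe sets at this stage. Of the 25 fibre transcripts, 8 were called higher and 5 lower. The part of these lists in the result for the 101 at this stage was not tested.

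Across 0 and 20 dpa the 10 transcripts called lower at 0 dpa included 9 of the 31 called higher by the labels at 20 dpa; the exception was GhiAffx.7119.1.S1_a_at at 0.74. Of the 91 not called at 0 dpa, 22 were called higher and 1 lower at 20 dpa. A further 63 of the 101 were called at none of 0, 5 and 20 dpa, with medians of 0.10, 0.36 and 0.82 at these stages, so that only the differences of the stages the rule used passed the fold threshold in these. The 31 called higher at 20 dpa had medians of -4.05 at 10 dpa and -3.81 at 15 dpa, and the 69 not called at 20 dpa had -2.81 and -2.37.

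**Figure D4:**
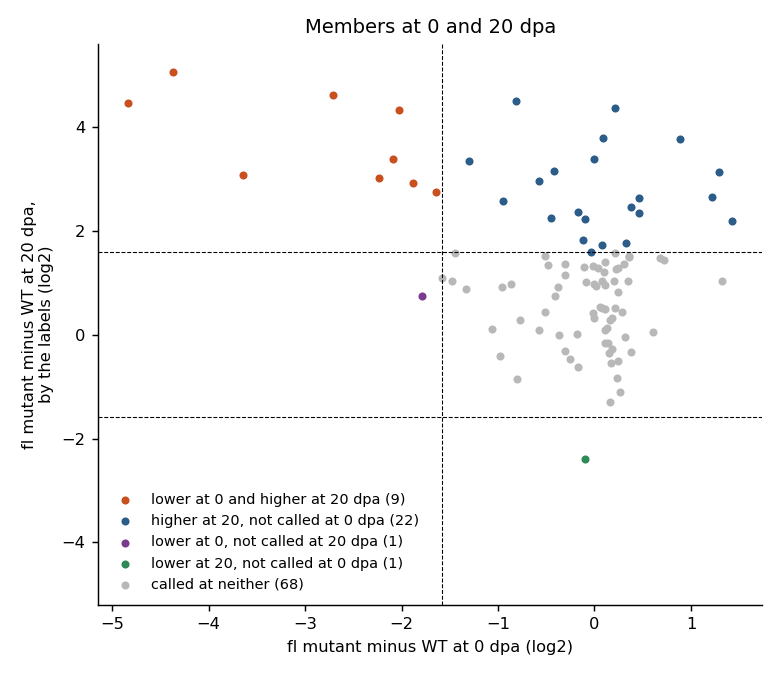
Difference between the fl mutant and WT at 0 dpa (x axis, log2) and at 20 dpa by the labels (y axis, log2) for the 101 transcripts, coloured by their limma calls (adjusted p up to 0.01 and a 3-fold change or more, the fold drawn as dashed lines). The 9 orange points at the upper left were called lower at 0 dpa and, by the labels only, higher at 20 dpa. The single green point is Ghi.6161.1.S1_s_at at -0.10 and -2.39.

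The difference between the genotype effects of 20 and 0 dpa was tested directly in a limma fit of all 30 arrays. By the labels it was positive and called for 38 of the 101 transcripts and negative and called for 1, beside 3.40% and 2.03% of all probe sets. The median over the 101 was 1.13, beside -0.08 over all probe sets. The largest were Ghi.3800.1.A1_at with 9.44 (SE 0.19, limma adjusted p 1.47e-22) and GhiAffx.2217.1.S1_at with 9.30 (SE 0.25, limma adjusted p 3.58e-20), and the negative one was Ghi.6161.1.S1_s_at with -2.29. The tubulin probe set gave 4.15 and E6 4.80. With the genotype names exchanged at 20 dpa, 2 of the 101 would be called positive and 30 negative, beside 4.19% and 3.42% of all probe sets, so this result rests on the labels.

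Probe sets that share a cluster number stem from the same group of cotton sequences, and the 101 transcripts fall into 96 such clusters. In 5 clusters 2 probe sets were members, of which Ghi.9604.1.S1_s_at and Ghi.9604.2.A1_x_at were close to each other at 10 dpa (-3.23 and -3.57) and 15 dpa (-4.44 and -4.34), whereas Ghi.5889.1.A1_x_at and Ghi.5889.2.S1_s_at were not (-6.38 and -3.30 at 10 dpa, -5.21 and -2.56 at 15 dpa). Outside the 101 there were 31 further probe sets of these clusters. Of the 31, 2 met the rule at both stages, 8 at 10 dpa only, 1 at 15 dpa only and 20 at neither. An unlisted probe set that met the rule at both stages would itself be one of the 101, so these counts are in part fixed by the choice of members. Some of the 31 also differ from their member only in the orientation letter of the name, A or S.

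For tubulin the neighbour Ghi.1314.1.S1_x_at, assigned to the same locus as the member, differed by only -0.85 at 10 dpa and -0.30 at 15 dpa, against -5.96 and -6.45 for the member. The remaining probe sets of this cluster were Ghi.1314.2.S1_s_at (-1.45 at 10 dpa and 0.25 at 15 dpa) and Ghi.1314.4.A1_at (-0.64 and -0.04). Likewise Ghi.5.2.S1_x_at, in the cluster of E6, differed by -0.23 at 10 dpa and -0.07 at 15 dpa. Ghi.3800.1.S1_at differed by -0.19 and -0.85 at these stages where the member Ghi.3800.1.A1_at had -3.32 and -4.56. The names of this pair differ only in the orientation letter, so its probe sets may read opposite strands and need not agree. The 2 neighbours that met the rule at both stages are in the study's lists. They are Ghi.8611.1.S1_s_at (-6.10 at 10 dpa and -4.24 at 15 dpa), a match of ATL31, an Arabidopsis RING ubiquitin ligase of the carbon and nitrogen response, and Ghi.9152.1.S1_at (-4.34 and -1.75), a match of the WD-40 repeat protein ZFWD4. Their members here, Ghi.8611.2.A1_at (-3.86 at 10 dpa and -2.65 at 15 dpa) and Ghi.9152.2.A1_at (-4.40 and -3.05), have no annotation of their own, and a shared cluster does not show that both probe sets read the same gene.

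**Figure D5:**
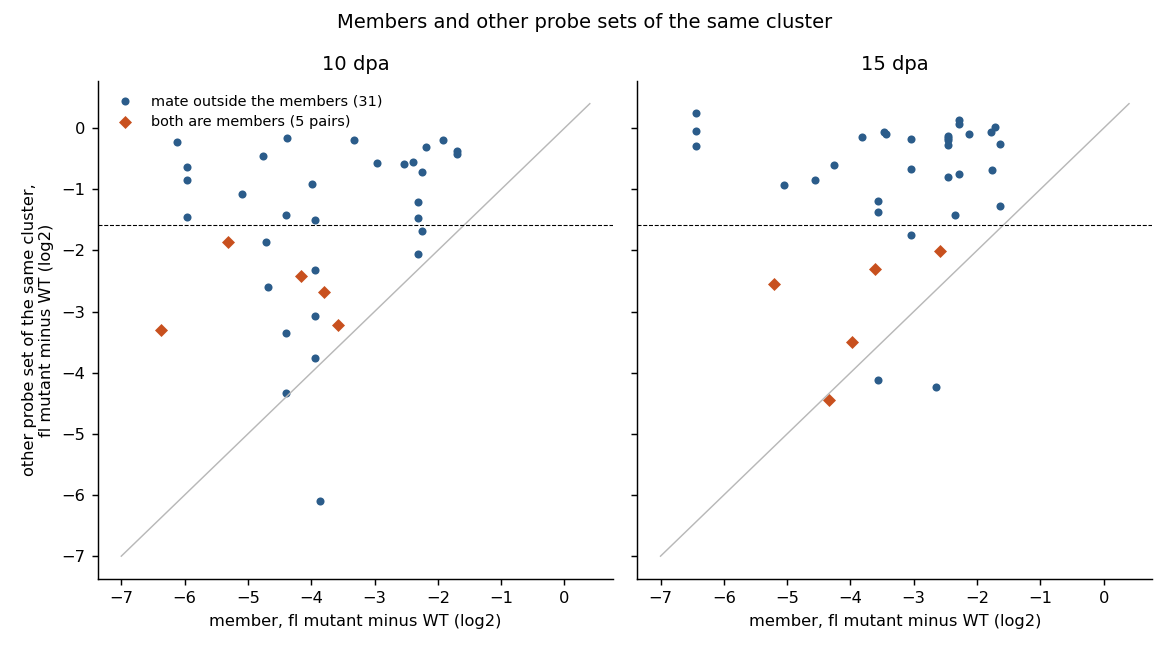
Difference between the fl mutant and WT (log2) of a transcript of the 101 (x axis) and of another probe set of its cluster (y axis) at 10 dpa (left) and 15 dpa (right); blue points are 31 probe sets outside the 101, orange diamonds 5 pairs in which both belong to the 101, the grey line marks equal differences and the dashed line the rule. Of the 31 blue points, 3 lie past the dashed line at 15 dpa, a number that the choice of members in part fixes.

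The 101 can be set beside the 101 transcripts of the same course in the study's lists of transcription factors, phytohormone, and metabolic and cell wall transcripts. Unlisted here means absent from these lists only, as the copy of the study's table of all changed transcripts used here names 10 of the 101. The unlisted ones had medians close to those of the listed at the stages outside the rule. At 0 dpa the unlisted had a median of -0.00 and the listed one of -0.12. By the labels, 5 dpa gave 0.41 for the unlisted beside 0.40 for the listed, and 20 dpa gave 1.04 beside 1.06. Called lower at 0 dpa were 10 of the unlisted and 14 of the listed, and called higher by the labels at 20 dpa were 31 of the unlisted and 37 of the listed. The medians that the rule used were -3.11 for the unlisted and -3.76 for the listed at 10 dpa, and -2.55 and -2.92 at 15 dpa. The origin of the probe sets was nearly the same in both groups: 90.1% of the unlisted and 89.1% of the listed carry the prefix Ghi, of G. hirsutum sequences, and 7.92% of each carry Gra, of G. raimondii sequences, beside 69.9% and 29.4% of all probe sets. Probe sets of the ending _s_at, which several transcripts share, were 45.5% of the unlisted, 51.5% of the listed and 38.7% of all.

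The spread between replicates was small beside the differences described. The median SD over the 101 transcripts was 0.174 in fl mutant and 0.0986 in WT ovules at 10 dpa, and 0.102 in fl mutant and 0.0688 in WT ovules at 15 dpa (n = 3 arrays each). At 0, 5 and 20 dpa these medians lay between 0.0672 and 0.121 in fl mutant ovules and between 0.074 and 0.112 in WT ovules. At 10 dpa the fl mutant arrays of the 101 were thus more spread than the WT arrays, while over all probe sets the medians were 0.116 in fl mutant and 0.121 in WT ovules. No test of this difference in spread was made.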

How the data were processed

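The authors hybridised RNA of fl mutant and WT ovules to Affymetrix cotton GeneChip arrays and made the deposited log2 values from the CEL files by RMA (background correction, quantile normalization, median polish) in GeneSpring GX 11.5, per the study's methods. The values show a further step: per probe set and stage, the 6 arrays have 0 as their median, so expression levels and comparisons of levels between stages are lost. The table holds 24132 probe sets, of which 103 are Affymetrix controls and were not used. Samples were grouped by the labels. Members and lists were chosen with earlier results of these data known.

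At 0, 5 and 20 dpa limma 3.58.1 (R 4.3.3; lmFit, eBayes) set 3 fl mutant against 3 WT arrays within a stage, for all 24029 probe sets. Calls need a p of 0.01 or less after Benjamini-Hochberg adjustment and a fold of 3 or more, the limits of the study's methods, where limma replaced the unpaired t-test. The 20 against 0 dpa difference is a contrast of group means in 1 limma model that held all 30 arrays. SE are those of limma. The same fit at 10 and 15 dpa was used only for the marker lists outside the 101 and for the shares called of all probe sets, which include the 101. Tables and figures were made with Python 3.11.15, pandas 2.3.3, numpy 2.4.6 and matplotlib 3.10.9. The number of arrays limits the precision.

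Transcripts named are those with an annotation, the 8 with the lowest mean difference at 10 and 15 dpa, the 4 called with the largest difference per direction at 0, 5 and 20 dpa, and 3 on each side of the limit; further probe sets, among them cluster neighbours and those of the extreme course or spread, were named after their values were seen. Names came from the study's annotation table, of which the copy used holds 1443 probe sets, and from the platform's gene table, which gives 1 locus for 697 probe sets, several for 46 and none for 23286; synonyms are those of RefSeq (Gossypium_hirsutum_v2.1), used for names only. Gene sequences were not used here. The alternatives were the methods' t-test, all 30 arrays in a single fit, a replicate block, arrays centred on their median, other thresholds, each array left out in turn, and, chosen after seeing the data, the exchange of genotype names at 20 dpa and the alternatives of the 20 against 0 dpa difference other than the block and the 12 arrays of these stages.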

Additional observations from a re-analysis of the deposited data

Results flagged for a closer look

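In 17 of the 25 transcripts named for an annotation, a place among the 8 lowest or a large called difference, the genotype effect differed between 20 and 0 dpa, tested as the difference of the effects in the limma model of all 30 arrays (adjusted p up to 0.01, size of 1.585 or more); all signs at 20 dpa are by the labels. Over all probe sets, 3.40% were called positive and 2.03% negative in this test. The 25 were named in part for their calls and large differences at 0 and 20 dpa, so their count is no measure of how often the effect differed. The difference of 20 minus 0 dpa was 9.44 for Ghi.3800.1.A1_at, 9.30 for GhiAffx.2217.1.S1_at, 7.32 for Ghi.680.1.S1_s_at and 6.72 for GarAffx.14950.1.S1_s_at, all of which had been called lower in the fl mutant at 0 dpa. It was 5.32 for GhiAffx.34141.1.A1_s_at, 4.15 for the tubulin probe set Ghi.1314.3.A1_x_at, 3.71 for Ghi.5748.1.S1_s_at, 2.69 for GarAffx.28288.1.S1_s_at and 2.17 for Ghi.4402.1.A1_s_at, which had not been called at 0 dpa. Among the other annotated transcripts it was 6.36 for the cyclin H match Ghi.2844.1.S1_s_at, 5.48 for the elongation factor match GhiAffx.9295.1.S1_x_at, 5.25 for Ghi.4657.1.S1_s_at, 4.80 for E6 (Ghi.5.1.S1_s_at), 4.39 for the RING/U-box match Ghi.1224.1.S1_x_at, 2.53 for GhiAffx.7119.1.S1_a_at and 2.51 for the Ssh2 transcript Ghi.7853.1.S1_at. Of these, the Ssh2 transcript had not been called at 0 dpa. The difference was -2.29 for Ghi.6161.1.S1_s_at. With the genotype names of the study's tables at 20 dpa the sign of the effect there would be turned. GhiAffx.2217.1.S1_at (effects of -4.83 and 4.46 for 0 and 20 dpa), Ghi.3800.1.A1_at (-4.37, 5.07) and GarAffx.14950.1.S1_s_at (-3.64, 3.08) would then miss the size limit. The tubulin probe set (0.22, 4.37) would keep a large difference, but a negative one. Of the 101 transcripts, 2 would be called positive and 30 negative, so the differences listed here rest on the labels. Groups of 3 arrays are too small for a test of single outlying arrays.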

How the results depend on the processing

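With a fold change of at least 2, calls at 0 dpa became 16 lower and 4 higher of the 101 transcripts; calls at 5 dpa became 14 higher; and calls at 20 dpa became 56 higher and 3 lower by the labels. Over all probe sets, calls at 0 dpa were then 722 lower and 177 higher. Those at 5 dpa were 880 higher and 200 lower, and those at 20 dpa 1350 higher and 1257 lower. For the difference of 20 against 0 dpa, this gave 57 positive and 4 negative among the 101, and 1626 positive and 1364 negative over all probe sets. A difference of at most -1 at 10 and 15 dpa took in 228 transcripts and one of at most -2 took in 65. With arrays centred on their median the median difference of the 101 was -0.057 at 0 dpa, and 0.459 at 5 dpa. With the genotype names exchanged at 20 dpa, the difference of 20 against 0 dpa was called positive for 2 and negative for 30 of the 101, and positive for 1007 and negative for 821 of all 24029 probe sets, against 38 and 1 of the 101, and 816 and 487 of all, by the labels.

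Leaving out single arrays changed the number of transcripts that met the rule to between 100 and 106. Of the 101, calls at 0 dpa ranged over 9 to 12 lower with 0 higher, at 5 dpa over 6 to 7 higher with 0 lower, at 20 dpa over 29 to 33 higher with 1 lower, and for 20 against 0 dpa over 37 to 38 positive with 1 negative. The median ranged from -0.010 to 0.034 (0 dpa), from 0.3995 to 0.436 (5 dpa) and from 1.04 to 1.15 (20 dpa). Over all probe sets, calls ranged over 329 to 337 lower with 36 to 39 higher (0 dpa), 41 to 44 lower with 435 to 450 higher (5 dpa), 469 to 485 lower with 594 to 605 higher (20 dpa), and 482 to 501 negative with 800 to 825 positive (20 against 0 dpa). Of the 101, the methods' t-test called 10 lower (0 dpa), 5 higher (5 dpa), and 30 higher with 1 lower (20 dpa). Of all probe sets, this t-test called 332 lower with 35 higher (0 dpa) and 40 lower with 431 higher (5 dpa). At 20 dpa it called 462 of all probe sets lower and 588 higher. Over the named transcripts and stages, 1309 of the recomputed calls were as reported, 14 were gained, all with the fold of at least 2, and 2 were lost: Ghi.6161.1.S1_s_at at 5 dpa by the methods' t-test (2.35) and Ghi.1224.1.S1_x_at at 0 dpa without fl mutant replicate 1 (-1.57).

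Replicate numbers did not pair the arrays: deviations of same-numbered fl mutant and WT arrays correlated between -0.16 and 0.16 over all probe sets. With the replicate number as a block, the calls among the 101 were 10 lower (0 dpa) and 6 higher (5 dpa). They were 31 higher with 1 lower (20 dpa), and 38 positive with 1 negative (20 against 0 dpa). Of all probe sets, the block gave 334 lower with 37 higher (0 dpa) and 43 lower with 441 higher (5 dpa). It gave 468 lower with 594 higher (20 dpa), and 487 negative with 816 positive (20 against 0 dpa). All these numbers were the same as without the block.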
